A study of Homo sapiens with 6 samples.

Results

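The genes described here are 10 of the HLA class II pathway: the antigen-presenting chains HLA-DRA, HLA-DRB1, HLA-DPA1, HLA-DPB1, HLA-DQA1 and HLA-DQB1, the peptide editors HLA-DMA and HLA-DMB, the invariant chain CD74 and the coactivator CIITA. They were picked by gene symbol from a gene family, with the FPKM values of all 6 libraries already known, so their own differences between lines are given as a description, without p-values. All 10 were among the 30178 genes of the table, and 8 of them passed the filter of a mean FPKM of at least 1 that left 11481 genes for the fit. HLA-DMB and HLA-DQA1 did not pass it. An FPKM value is a read count divided by the length of the gene and by the size of the library.

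The libraries came from CAL27, an established human tongue squamous carcinoma cell line that the labels call an oral adenosquamous one. The study compared 3 stable lines: 1 with constitutive expression of MB21D2 carrying the Q311E substitution, 1 with constitutive expression of wild-type MB21D2, and 1 with the empty vector, with 2 libraries (A and B) of each. MB21D2 belongs to the Mab-21 protein family, as does the DNA sensor cGAS. All lines were kept in G418, and the labels speak of GFP-fused proteins for every sample. The labels do not say whether a line was a clone or a pool, nor whether A and B were separate cultures, so the spread between A and B may be technical.

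Class II molecules are pairs of an alpha and a beta chain that show peptides from the endosome to CD4+ T cells. CD74 holds new chain pairs and blocks their groove until proteases of the endosome cut it down, and HLA-DM then exchanges its last fragment for a peptide. CIITA docks on a complex of RFX, CREB and NF-Y factors at the S, X and Y boxes of class II promoters and switches the genes on. Professional antigen-presenting cells use it constitutively, and epithelial cells do so mainly after interferon-gamma.

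The X and Y boxes can be seen in RefSeq promoter sequence, shown here because they are the stretch through which CIITA acts on these genes. RefSeq entries (GRCh38.p14) were found for 8 of the 10 genes, those other than HLA-DRA and CIITA. The last 130 bases before the start of 6 genes follow, 5′ to 3′ on the gene's strand. Capitals mark matches on either strand to CNGATGA, a core of the X box, and to CCAAT, the core of the Y box, which reads ATTGG on the other strand. The letters of CNGATGA were chosen after these promoters had been read. The motifs can share a base at their ends, and none of the matches printed does.
HLA-DRB1 (chr6:32589849-32589978, minus strand): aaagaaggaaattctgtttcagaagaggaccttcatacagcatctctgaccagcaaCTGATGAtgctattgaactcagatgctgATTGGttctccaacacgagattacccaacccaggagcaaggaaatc
HLA-DQB1 (chr6:32666658-32666787, minus strand): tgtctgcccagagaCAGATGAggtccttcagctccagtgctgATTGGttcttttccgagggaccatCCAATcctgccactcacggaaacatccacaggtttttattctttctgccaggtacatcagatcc
HLA-DMA (chr6:32953098-32953227, minus strand): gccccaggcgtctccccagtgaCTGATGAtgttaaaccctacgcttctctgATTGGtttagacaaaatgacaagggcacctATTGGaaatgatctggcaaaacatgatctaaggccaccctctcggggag
HLA-DMB (chr6:32941029-32941158, minus strand): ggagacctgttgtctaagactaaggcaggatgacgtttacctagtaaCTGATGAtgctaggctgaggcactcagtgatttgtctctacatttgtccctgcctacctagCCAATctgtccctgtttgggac
HLA-DPB1 (chr6:33075860-33075989, plus strand): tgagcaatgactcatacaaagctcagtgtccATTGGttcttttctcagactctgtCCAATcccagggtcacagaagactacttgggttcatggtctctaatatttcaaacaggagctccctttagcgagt
CD74 (chr5:150412911-150413040, minus strand): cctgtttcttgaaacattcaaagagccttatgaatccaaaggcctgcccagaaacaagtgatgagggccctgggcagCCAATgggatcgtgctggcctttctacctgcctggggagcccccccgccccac

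In HLA-DRB1 and HLA-DQB1 the X match was followed by a Y match after 21 bases, and in HLA-DMA after 22 bases. Over the 250 bases before the start, an X match on the gene's strand with a Y match 10 to 40 bases further on stood in 3 of the members' 9 promoter entries, and in 79 of all 35116 entries (0.225%). Alone, CNGATGA on either strand was in 5 of the 9 entries and in 7.69% of all, and CCAAT in 7 of the 9 and in 32.0% of all. HLA-DMB and CD74 held both motifs but not at that spacing, HLA-DPB1 and HLA-DQA1 held only the Y motif, and neither entry of HLA-DPA1 held either motif. A match is a description of letters, not of a bound site. Nor does a missing match mean that a box is absent. The CD74 stretch printed holds gtgatga ahead of its CCAAT, which differs from CNGATGA only in the first letter.

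Library totals, recovered from the steps of the FPKM values, ran from 20645410 to 24147306 reads. MB21D2 followed the labels, at 32.8 and 21.2 FPKM in the Q311E libraries, 104 and 106 in the wild-type libraries and 8.31 and 7.15 in the vector libraries, so the form of the protein and the amount of its RNA differ together. The SD of the log2 difference between libraries A and B was 0.436 for Q311E, 0.145 for wild type and 0.192 for vector. All 9 squamous epithelial markers listed had a mean of at least 1 FPKM over the 6 libraries, with KRT5 at 405 to 579. PKP1 was at 0.393 and 0.484 FPKM in Q311E A and B. The mean of KRT6A was 15.8 FPKM in Q311E, 8.69 in wild type and 107 in vector. In the limma fit 1 of the 9 was called higher and 3 lower in Q311E over vector (8.67% and 9.28% of all genes). In wild type over vector 0 were called higher and 4 lower (3.54% and 8.76% of all genes). Of 15 markers of antigen-presenting and other immune cells 9 were in the table. Besides CD83 and CD14 the other 7 of these stayed under 0.5 FPKM in every library, with a sum of 0.286 to 0.426 FPKM in Q311E, 0.336 to 0.395 in wild type and 0.292 to 0.353 in vector, and the leukocyte marker PTPRC was listed at 0 in 5 of the 6 libraries. CD14, a lipopolysaccharide co-receptor of monocytes, stood at 4.93 and 18.8 FPKM in Q311E A and B, 2.39 and 2.56 in wild type and 1.78 and 3.17 in vector. CD83 had 15.0 and 17.0 FPKM in Q311E A and B, 20.6 and 19.65 in wild type and 13.0 and 12.7 in vector. In the limma fit it was higher in wild type over vector (0.61 ± 0.09, adjusted p = 0.0175) and lower in Q311E over wild type (-0.31 ± 0.09, adjusted p = 0.0481). The part of CD14 and CD83 in the results below was not tested.

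The wild-type line carried far less class II RNA than the vector line. All 8 class II chains among the members were at or below 25.4% of the vector mean there, from 25.4% for HLA-DRA down to 5.66% for HLA-DPB1, while CD74 stood at 68.8% and CIITA at 71.9%. The Q311E line held chain RNA on the vector's side of that gap, with its libraries far apart: library B was at or above the vector for several members and library A below it. The summed level of the 8 chains was 87.2 and 165 FPKM in Q311E A and B, 25.2 and 27.7 in wild type, and 105 and 121 in vector. In RNA of whole cultures, fewer class II positive cells and less class II RNA per cell cannot be told apart.

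**Figure D1:**
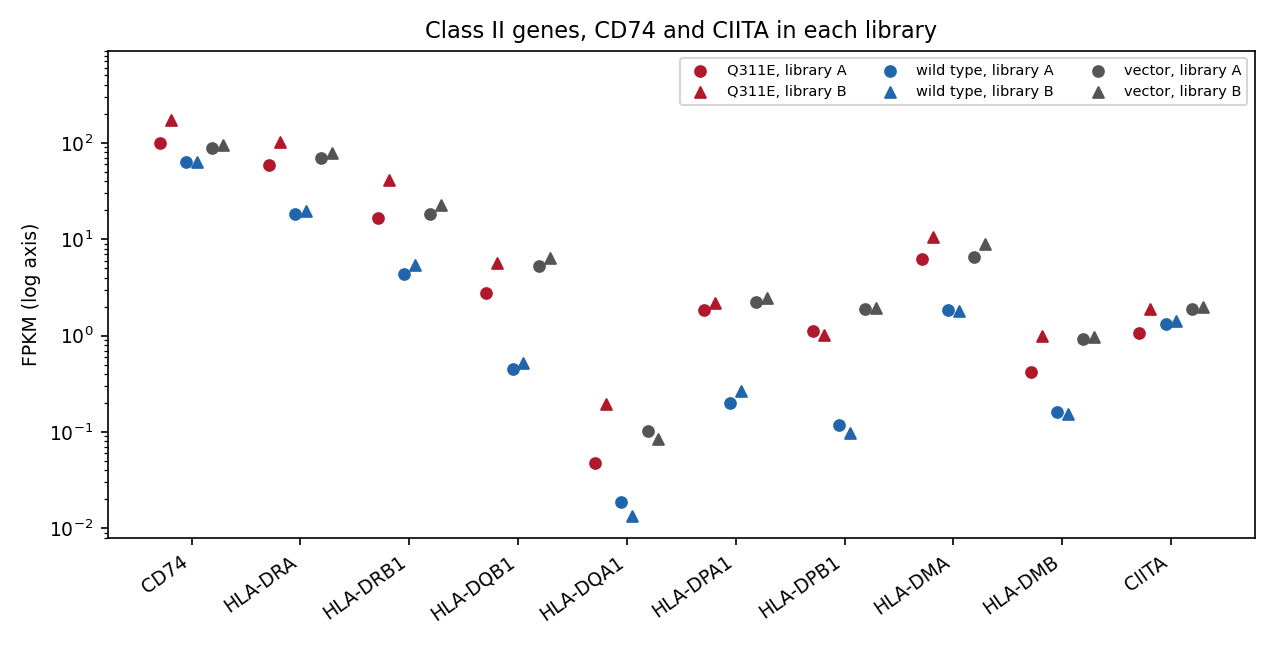
FPKM (log axis) of each member in each library, with Q311E in red, wild type in blue and vector in grey, circles for library A and triangles for library B. For all 8 class II chains both wild-type libraries lie below the other 4 libraries, whereas the CIITA values of all 3 lines lie between 1.06 and 1.96 FPKM.

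The DR chains made up most of the class II RNA. HLA-DRA (GRCh38 chromosome 6, 32439842 to 32445046), the near-invariant alpha chain of HLA-DR, had 58.1 and 103 FPKM in Q311E A and B, 18.05 and 19.4 in wild type A and B, and 69.5 and 77.9 in vector A and B. These values rest on 512 to 2761 reads a library. The wild-type libraries were below all others, and the Q311E libraries lay on either side of the vector pair. On the log2(FPKM + 1) scale the difference was 0.07 ± 0.26 (SE) for Q311E over vector, -1.92 ± 0.26 for wild type over vector and 1.99 ± 0.26 for Q311E over wild type. HLA-DRB1, its main beta chain, had 16.5 and 41.6 FPKM in Q311E, 4.35 and 5.46 in wild type, and 18.2 and 22.7 in vector, the same order with a wider gap between the Q311E libraries. Its differences were 0.36 ± 0.41, -1.86 ± 0.41 and 2.21 ± 0.41 for the same comparisons.

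The copies of the DR beta gene share sequence, so reads may be split among them. HLA-DRB5 had 7.14 and 19.0 FPKM in Q311E, 2.63 and 2.63 in wild type, and 9.48 and 12.0 in vector, which is 0.433 to 0.604 of the HLA-DRB1 value in every library. Its values are therefore given as a description too, and it is 1 of the 10 pathway genes called higher in Q311E over wild type below. Alleles of this cell line that differ from the reference may also lower single HLA values, in all lines alike.

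The DQ and DP chains were lower in level than DR and lower still, relative to vector, in the wild-type line. HLA-DQB1, a DQ beta chain, had 2.80 and 5.64 FPKM in Q311E, 0.447 and 0.516 in wild type, and 5.29 and 6.43 in vector. The wild-type mean was 8.22% of the vector mean, and the Q311E libraries overlapped the vector pair. HLA-DQA1, the matching alpha chain, was near the limit of detection, with 7 and 29 reads in Q311E, 3 and 2 in wild type, and 17 and 12 in vector (0.0135 to 0.194 FPKM), and was not tested.

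HLA-DPA1, the DP alpha chain, had 1.86 and 2.16 FPKM in Q311E, 0.198 and 0.269 in wild type, and 2.21 and 2.44 in vector. HLA-DPB1, its beta chain, had 1.11 and 1.03 FPKM in Q311E, 0.118 and 0.0988 in wild type, and 1.90 and 1.92 in vector, on 123 and 116 reads in Q311E, 14 and 11 in wild type, and 240 and 207 in vector. For both genes the lines did not overlap, and Q311E lay between wild type and vector. Exons of these genes overlap on opposite strands, and whether the counting used strand is not given in the sources used here, so reads in the overlap cannot be assigned. HLA-DPB1, at a mean of 1.03 FPKM, HLA-DPA1 and HLA-DQB1 passed the filter only through the Q311E and vector libraries, being under 1 FPKM in both wild-type libraries.

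Not all chains differed between lines in proportion to HLA-DRA. HLA-DPB1 was at 1.90% and 1.00% of the HLA-DRA value in Q311E A and B, 0.651% and 0.509% in wild type, and 2.74% and 2.46% in vector. HLA-DPA1 was at 3.19% and 2.10% of the HLA-DRA value in Q311E A and B, 1.10% and 1.39% in wild type, and 3.18% and 3.13% in vector. HLA-DQB1 was at 4.81% and 5.49% of HLA-DRA in Q311E, 2.48% and 2.66% in wild type, and 7.60% and 8.25% in vector. HLA-DMA, by contrast, kept to 10.8% and 10.4% in Q311E, 10.1% and 9.30% in wild type, and 9.50% and 11.5% in vector. HLA-DRA was 3.53 and 2.47 times HLA-DRB1 in Q311E, 4.15 and 3.56 times in wild type, and 3.82 and 3.44 times in vector. HLA-DMB was at 0.718% and 0.967% of HLA-DRA in Q311E, 0.895% and 0.785% in wild type, and 1.34% and 1.25% in vector. Beside HLA-DRA, then, HLA-DPA1, HLA-DPB1, HLA-DQB1 and HLA-DMB took a smaller share in both wild-type libraries than in both vector libraries. HLA-DMA and HLA-DRB1 overlapped between these lines.

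HLA-DMA, which with HLA-DMB forms the peptide editor, had 6.30 and 10.6 FPKM in Q311E, 1.83 and 1.81 in wild type, and 6.61 and 8.94 in vector. The wild-type libraries were again lowest, with a mean 23.4% of the vector mean. HLA-DMB had 0.418 and 0.993 FPKM in Q311E, 0.162 and 0.152 in wild type, and 0.934 and 0.977 in vector, on 15 to 104 reads a library, so the wild-type line stood at 16.4% of the vector. HLA-DMB was not tested because its mean over the libraries was 0.606 FPKM.

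CD74 (chromosome 5, 150401637 to 150412929) was the most abundant member in every library. It had 100 and 170 FPKM in Q311E, 63.2 and 62.7 in wild type, and 88.0 and 95.1 in vector. Both Q311E libraries were above, and both wild-type libraries below, the vector pair. The differences were 0.51 ± 0.24 for Q311E over vector, -0.53 ± 0.24 for wild type over vector and 1.04 ± 0.24 for Q311E over wild type on the log2(FPKM + 1) scale. Beside HLA-DRA it took its highest share in the wild-type line: it stood at 1.73 and 1.66 times HLA-DRA in Q311E, 3.50 and 3.23 times in wild type, and 1.27 and 1.22 times in vector, per length.

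CIITA (chromosome 16, 10866222 to 10943021) had 1.06 and 1.91 FPKM in Q311E, 1.33 and 1.43 in wild type, and 1.87 and 1.96 in vector, on 470 to 937 reads a library. The wild-type libraries were below the vector pair and within the range of the Q311E pair. The difference of -0.29 ± 0.18 for wild type over vector on the log2(FPKM + 1) scale stands beside -1.92 ± 0.26 for HLA-DRA. At the low level of CIITA a pseudocount of 1 understates its difference more than that of HLA-DRA. With a pseudocount of 0.1 the differences were -0.448 for CIITA and -1.97 for HLA-DRA. With limma-voom on recovered reads they were -0.475 and -1.975. The CIITA value covers all its promoters together over a counted length of 20757 bases, which keeps its FPKM low, and its exons overlap the opposite-strand genes DEXI and AC133065.1. DEXI itself read 0.660 and 0.546 FPKM in Q311E, 0.898 and 0.939 in wild type, and 0.953 and 0.832 in vector.

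**Figure D2:**
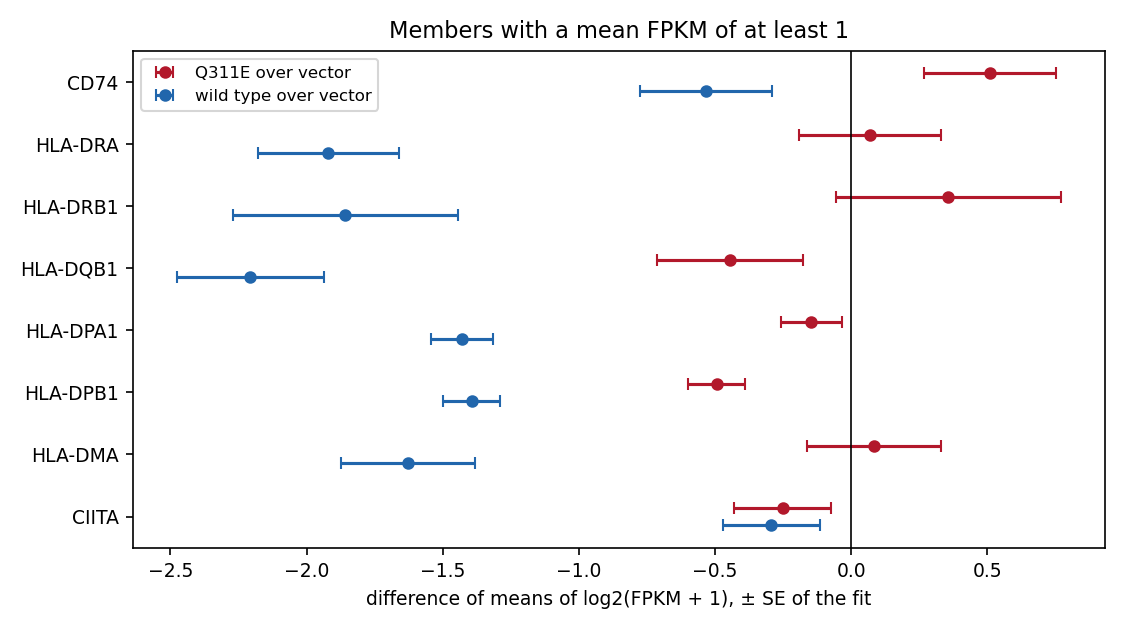
Difference from vector of the mean log2(FPKM + 1), with its SE from the fit, for the 8 members with a mean of at least 1 FPKM; Q311E over vector in red and wild type over vector in blue. The 6 class II chains lie between -2.21 and -1.39 for wild type, and between -0.49 and 0.36 for Q311E.

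The levels of HLA-DRA and CD74 can be set against CIITA in the same library. HLA-DRA was 54.6 and 53.8 times CIITA in Q311E A and B, 13.6 and 13.6 times in wild type, and 37.2 and 39.7 times in vector. CD74 was 94.3 and 89.2 times CIITA in Q311E, 47.5 and 44.0 times in wild type, and 47.1 and 48.4 times in vector. The Q311E libraries, which differ 1.79-fold in CIITA, were close in both ratios. For CD74 the wild-type ratios lay beside those of the vector, whereas for HLA-DRA they lay far below.

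**Figure D3:**
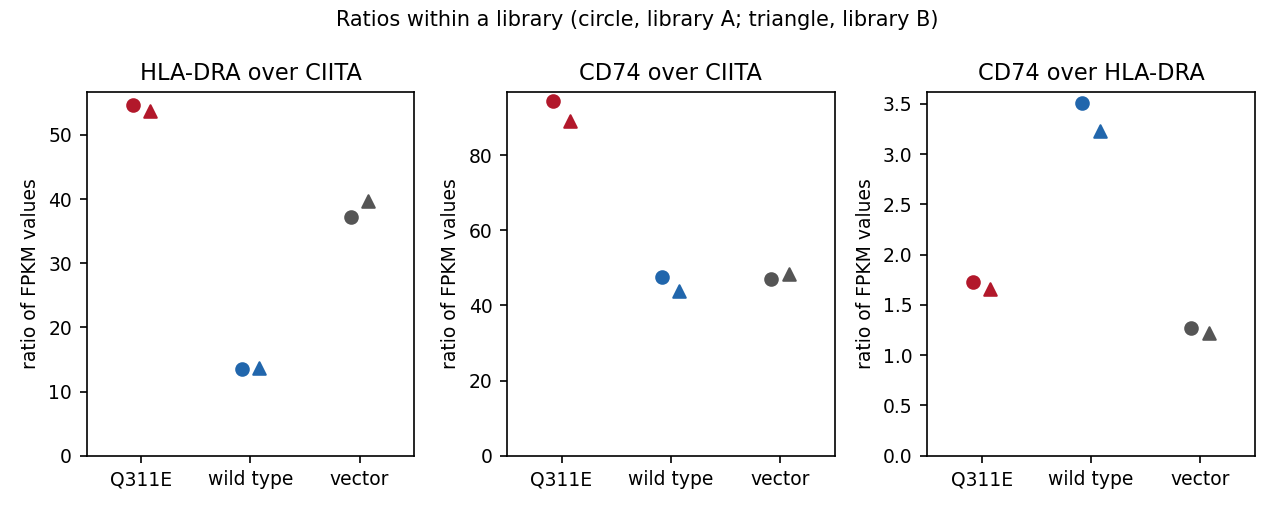
Ratios of FPKM values within a library for HLA-DRA over CIITA, CD74 over CIITA and CD74 over HLA-DRA, by line (Q311E, wild type, vector; circle for library A, triangle for library B). HLA-DRA over CIITA is 53.8 to 54.6 in Q311E, about 13.6 in wild type and 37.2 to 39.7 in vector.

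In the fit over all genes, 6 of the 8 tested members were called lower in wild type than in vector at a Benjamini-Hochberg adjusted p under 0.05 and 0 higher, where 8.76% and 3.54% of all genes were called. The 6 are the class II chains. CD74 and CIITA were not called in this fit, whose spread takes in the Q311E libraries. At an unadjusted p under 0.05 the counts were also 6 and 0, for which the share of all genes is not given here. With limma-voom on recovered reads 5 were called lower and 0 higher, against 1036 lower and 438 higher of 11471 genes. With only wild type and vector in the fit, all 8 members were called lower, CD74 and CIITA among them, as were 3264 of all 11481 genes. For all 8 the wild-type libraries were below both vector libraries, which held for 44.9% of all genes. The members' median difference was -1.53, against -0.05 over all genes. In Q311E against wild type 7 of 8 were called higher, all but CIITA, and 0 lower, where 17.5% and 10.1% of all genes were called. These shares depend on the scaling: with median scaling 1487 genes were called higher and 2226 lower in Q311E against wild type (2004 and 1158 without it), and 625 higher and 683 lower in wild type against vector (406 and 1006 without it). For those 7 both Q311E libraries were above both wild-type ones (39.3% of all genes), and the median was 1.497 against 0.05. With any 1 library left out, wild type over vector stayed below 0 for all 8, at -2.001 to -1.839 for HLA-DRA. Q311E over wild type stayed above 0 for all but CIITA, at 1.585 to 2.394 for HLA-DRA. The calls themselves changed with the library left out, over the whole table as well as in the members. Nothing is read from the counts of members called, since the members were chosen with these values known.

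In Q311E against vector 1 of the 8, HLA-DPB1, was called lower and 0 higher, where 9.28% and 8.67% of all genes were called. The unadjusted counts were 1 and 0, again without a share of all genes. With limma-voom on recovered reads HLA-DPB1 alone was called too, against 1053 lower and 1030 higher of 11471 genes. The HLA-DPB1 call was lost with the replicate block (0 of 8 called), with a pseudocount of 0.1, without the filter, with TPM scaling, with only these lines in the fit, and without any 1 wild-type or vector library. HLA-DPA1 and HLA-DPB1 were lower in both Q311E libraries than in both vector libraries (30.0% of all genes were), and CD74 was higher (30.1% of all genes were). The other 5 overlapped, and the members' median was -0.04 against 0.00 for all genes. This comparison turned on the library. Without Q311E A the differences were 0.474 for HLA-DRA, 0.999 for HLA-DRB1, 0.889 for CD74 and 0.422 for HLA-DMA. Without Q311E B they were -0.335, -0.286, 0.132 and -0.252 in that order. HLA-DQB1 was at -0.042 without A and -0.847 without B, and CIITA at -0.004 and -0.499. HLA-DPA1 was at -0.074 and -0.218, and HLA-DPB1 at -0.522 and -0.467. Comparisons with the vector share its 2 libraries.

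The Q311E libraries differed in most members in the same direction. Library B over library A was 1.77 for HLA-DRA, 2.52 for HLA-DRB1, 2.02 for HLA-DQB1, 1.69 for HLA-DMA, 2.38 for HLA-DMB, 1.698 for CD74 and 1.79 for CIITA. The DP genes did not follow, at 1.16 for HLA-DPA1 and 0.928 for HLA-DPB1. Over the 10 members the median of B over A was 1.78 in Q311E, 1.03 in wild type and 1.09 in vector. Other genes, named after their values were seen, ran the other way or stayed level. The kinase JAK2 was 1.5 and 0.884 FPKM in Q311E A and B and the class I coactivator NLRC5 6.04 and 3.87, while the class I chain HLA-B had 297 and 265. CD14 (4.93 and 18.8 FPKM), SOCS1, a brake on JAK kinases (3.45 and 8.86), and the interferon-gamma receptor chain IFNGR1 (19.96 and 42.5) were higher in B with the class II genes. What sets the Q311E libraries apart was not tested.

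**Figure D4:**
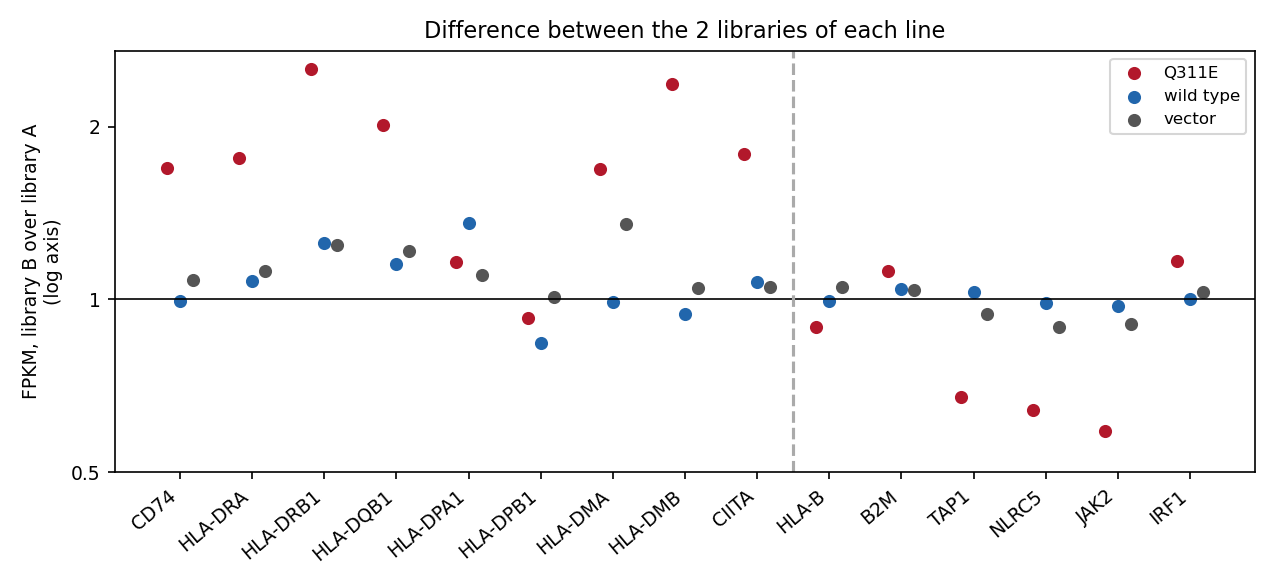
FPKM of library B over library A (log axis) within each line, for 9 members left of the dashed line and 6 genes of class I presentation and interferon signalling right of it; Q311E in red, wild type in blue, vector in grey. In Q311E the members other than the DP genes lie between 1.69 and 2.52, while JAK2, NLRC5 and TAP1 lie between 0.590 and 0.676. The 6 genes were picked after values were seen. SOCS1 and IFNGR1, at 2.565 and 2.129 in Q311E, are not plotted.

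Genes of the wider pathway came from lists of 46 non-members, of which 42 were in the table and 29 tested. In wild type over vector limma called 3 of the 29 higher and 4 lower, in Q311E over vector 7 higher and 1 lower, and in Q311E over wild type 10 higher and 2 lower. Their medians were -0.14, 0.19 and 0.34 in these comparisons, against -0.05, 0.00 and 0.05 for all genes. Of all genes, 3.54% were called higher and 8.76% lower in wild type over vector, and 8.67% and 9.28% in Q311E over vector. In Q311E over wild type these shares were 17.5% and 10.1%. Leaving out 1 wild-type or vector library cut the calls over the whole table, so it does not single out the pathway genes.

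Among the factors that seat CIITA on class II promoters, RFX5, a subunit of the X box complex, followed the class II chains in wild type. It had 12.7 and 11.9 FPKM in Q311E, 6.005 and 6.72 in wild type, and 9.25 and 9.37 in vector, so the lines did not overlap. It fell in wild type against vector (-0.49 ± 0.09, adjusted p = 0.0272) and rose in Q311E against vector (0.37 ± 0.09, adjusted p = 0.042). RFXANK, its partner, was 13.4 and 18.5 FPKM in Q311E, 11.9 and 13.8 in wild type, and 20.2 and 20.1 in vector, and did not pass the test in any comparison (adjusted p = 0.0661 to 0.231), nor did RFXAP. NFYA, a subunit of the Y box factor, rose in wild type over vector (0.45 ± 0.10, adjusted p = 0.0474), and so did the histone acetyltransferase EP300 (0.55 ± 0.12, adjusted p = 0.0445). Thus 2 of the 10 promoter factors rose and 1 fell in wild type over vector, where 3.54% and 8.76% of all genes did. Both rises lie close to the threshold: of the 29 pathway genes, 3 were called higher in this comparison, against 1 with TPM scaling, 1 with no variance trend and 2 with the replicate block. In Q311E over vector only RFX5 was called.

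The endosomal proteases showed differences in both directions. CTSS, which makes the last cut of CD74 in antigen-presenting cells, had 16.0 and 17.1 FPKM in Q311E, 3.80 and 3.32 in wild type, and 7.92 and 8.59 in vector. It fell in wild type (-1.02 ± 0.09, adjusted p = 0.0084) and rose in Q311E (0.92 ± 0.09, adjusted p = 0.00665), both against vector. CTSL, which can do this in thymic epithelium in the mouse, fell in both lines (-0.72 ± 0.10 in Q311E, adjusted p = 0.0118, and -1.05 ± 0.10 in wild type, adjusted p = 0.0084). CTSV, its human relative with the same use in thymus, rose in both, at 4.38 and 3.67 FPKM in Q311E, 5.61 and 5.34 in wild type, and 1.84 and 2.22 in vector (adjusted p = 0.017 and 0.0102).

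CTSB, an abundant lysosomal protease, fell in wild type (-1.43 ± 0.27, adjusted p = 0.0326) with 90.7 and 93.3 FPKM there against 233 and 269 in vector. CTSD rose in Q311E over vector (0.98 ± 0.20, adjusted p = 0.0308). MARCHF8, a ligase that drives turnover of surface class II, rose in Q311E over vector too (0.41 ± 0.10, adjusted p = 0.0484). Of 9 tested genes of processing and traffic, 4 rose and 1 fell in Q311E over vector, where 8.67% and 9.28% of all genes did. In wild type over vector 1 rose and 3 fell (3.54% and 8.76% of all genes). In Q311E over wild type 5 rose and 0 fell (17.5% and 10.1% of all genes). The thiol reductase IFI30 was at 0.0200 to 0.221 FPKM in all libraries and was not tested.

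**Figure D5:**
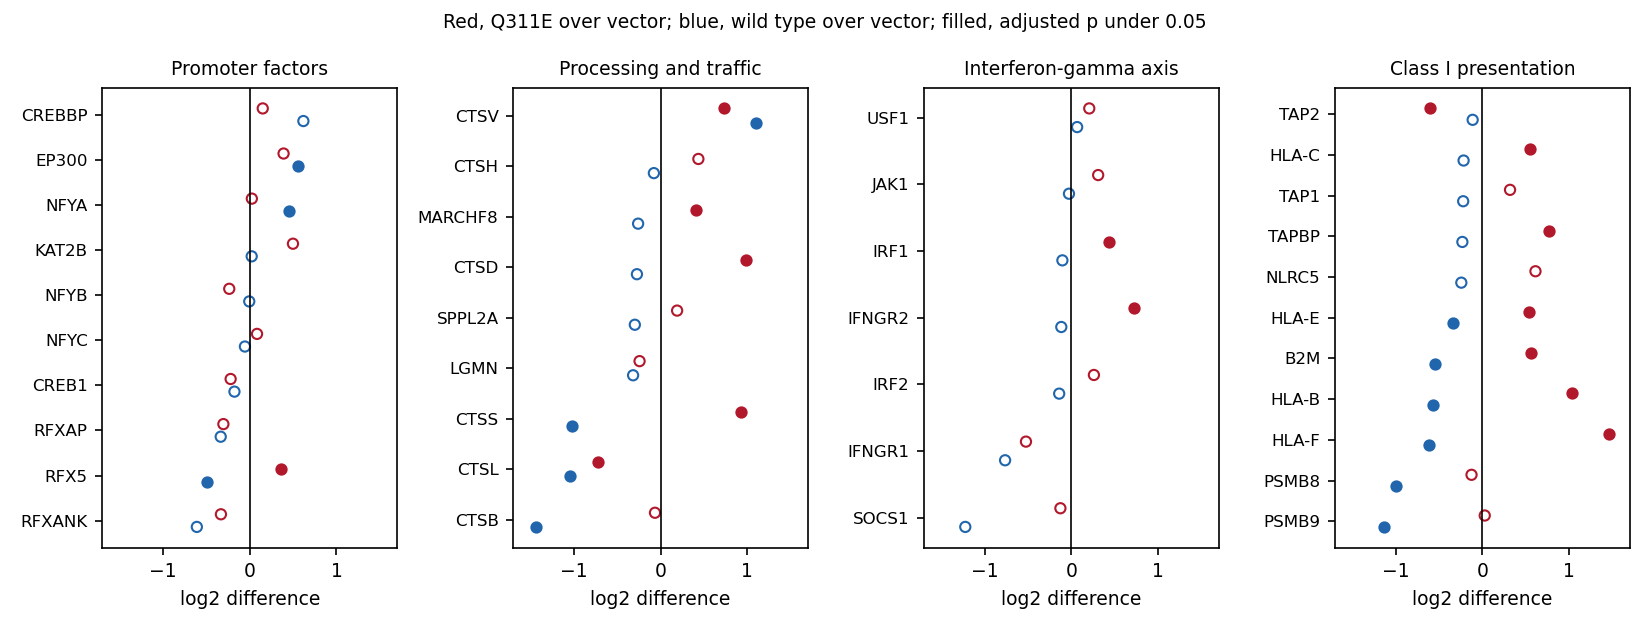
Difference from vector in log2(FPKM + 1) for tested promoter factors, processing and traffic genes, interferon-gamma signalling genes and class I presentation genes; red for Q311E over vector, blue for wild type over vector, filled where the adjusted p was under 0.05. CTSS, RFX5 and the class I genes B2M, HLA-B, HLA-E and HLA-F have filled points on opposite sides of 0.

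On the route from interferon-gamma to CIITA, limma called 0 of 8 tested genes in wild type over vector. At the same adjusted p under 0.05, 3.54% of all genes were called higher and 8.76% lower. At an unadjusted p under 0.05 limma gave 0 higher and 1 lower, SOCS1. The share of all genes at that unadjusted threshold is not given here. IRF1, which binds the interferon-responsive CIITA promoter, had 12.4 and 12.4 FPKM in wild type against 13.2 and 13.6 in vector (adjusted p = 0.477). SOCS1 stood at 1.76 and 2.48 FPKM in wild type against 6.06 and 6.42 in vector (-1.22 ± 0.37, adjusted p = 0.0897). In Q311E over vector IRF1 (0.44 ± 0.09, adjusted p = 0.0336) and the receptor chain IFNGR2 (0.72 ± 0.14, adjusted p = 0.0264) rose. In Q311E over wild type these and JAK1 rose (adjusted p = 0.0166, 0.0154 and 0.0473).

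Of the receptors that CD74 works with when its ligand MIF binds, CD44 was lower in Q311E than in wild type (73.3 and 47.1 against 117 and 120 FPKM, -0.998 ± 0.21, adjusted p = 0.026). ACKR3, a scavenging chemokine receptor that also binds MIF, had 0.272 and 1.03 FPKM in Q311E, 0.0424 and 0.0680 in wild type, and 2.14 and 2.13 in vector, with a mean under the filter. The lines did not overlap in ACKR3, in the same order as the DP genes. MIF was listed at 0.0634 to 0.624 FPKM, CXCR2 at 0.0273 to 0.283 and CXCR4 at 0 to 0.0423.

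The remaining class II genes of the list were barely detected. HLA-DOB, part of the HLA-DM inhibitor, had 5 to 17 reads a library, and HLA-DOA, its partner, 1 read in all. HLA-DQA2 and HLA-DQB2 had 0 to 5 reads. The DR pseudogene HLA-DRB6 had 9 and 29 reads in Q311E, 3 and 3 in wild type, and 24 and 17 in vector, the order seen in HLA-DRB1.

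Class I presentation genes share interferon control with class II. Of 12 tested, 7 fell and 0 rose in wild type over vector, with a median of -0.42, where 8.76% and 3.54% of all genes did. In Q311E over vector 7 rose and 1 fell, with a median of 0.55, where 8.67% and 9.28% of all genes did. The beta-2 microglobulin gene B2M had 256 and 287 FPKM in Q311E, 124 and 129 in wild type, and 181 and 188 in vector, and the class I chain HLA-B had 297 and 265 in Q311E, 91.7 and 91.2 in wild type, and 133 and 140 in vector. B2M rose in Q311E (0.56 ± 0.09, adjusted p = 0.0194) and fell in wild type (-0.54 ± 0.09, adjusted p = 0.0262), both against vector. The difference between the class I and class II groups was not tested.

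The class II genes lie together on chromosome 6, and their neighbours did not all follow them. Between the start of HLA-DRA and the end of HLA-DPB1 (32439842 to 33087201) the table held 24 genes, of which 13 were tested, 6 of them members. Of the 7 others, the immunoproteasome genes PSMB8 and PSMB9 fell in wild type over vector (-0.996 ± 0.08 and -1.13 ± 0.08, adjusted p = 0.00605 and 0.00604). BRD2, a chromatin reader next to HLA-DMA, rose, with 36.05 and 37.4 FPKM in wild type against 27.2 and 27.1 in vector (0.42 ± 0.08, adjusted p = 0.0279). Its exons overlap HLA-DMA on the other strand. The peptide transporter genes TAP1 and TAP2, between HLA-DOB and HLA-DMB, were not called in that comparison (adjusted p = 0.44 and 0.6). Their wild-type libraries were still below both vector libraries, as for 44.9% of all genes. HLA-DRB5 (-1.68) and PSMB8-AS1 (-0.46) were not called either. Of the 7, BRD2 alone had a difference above 0.

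By likeness over the 6 libraries, the 5 tested non-members closest to CD74 were DDR1, PRRG2, TMEM254, PLPP3 and CDH5, with Pearson correlations of 0.998 to 1.00 among 4061 genes whose log2 range was at least 0.713, against 1.43 for CD74. DDR1, a collagen receptor kinase, had 67.5 and 116 FPKM in Q311E, 43.7 and 44.0 in wild type, and 61.0 and 65.2 in vector. CDH5, a cadherin known from endothelium, had 22.6 and 35.2 FPKM in Q311E, 15.9 and 15.4 in wild type, and 19.9 and 21.3 in vector. These 5 were picked as the highest of the 4061, so other genes fall below them by that choice. The tested class II chains had correlations with CD74 from 0.56 for HLA-DPB1 to 0.94 for HLA-DRB1, and CIITA had 0.43. With 3 lines of 2 libraries these values are a description.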

How the data were processed

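RNA of 6 libraries was sequenced, 2 per line. FPKM values per Ensembl gene were deposited by the authors in 1 table of the series; per the submitters' processing notes CASAVA was used and the builds mm8 and mm9 are named, which are mouse builds, while the deposited IDs are human. For the aligner, the counter and the use of strand nothing is stated in the labels. Names and positions came from GENCODE 29, which named 29993 of 30178 IDs. Whole reads could be recovered from the FPKM steps for 99.51% of genes (tolerance 0.001), with totals of 20645410 to 24147306 reads. At the GENCODE 29 length 22361 of the 30178 genes gave whole reads. For the others a length was searched between 0.25 and 4 times that one. For CD74 4780 bases were used in place of 3184, and for HLA-DPB1 5222 in place of 2791. The recovered reads were used for depth, read counts and limma-voom.

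Genes averaging 1 FPKM or more over the libraries were fitted with limma 3.58.1 (trend, R 4.3.3) on log2(FPKM + 1) over all 3 lines, with 3 residual degrees of freedom and Benjamini-Hochberg adjustment over 11481 genes; a fold on this scale understates the change of low genes. Adjusted p-values rest on the spread of A and B alone, which may be technical. The script was tested on simulated data. The members and gene lists were chosen with earlier results of these data known. Named were all members, up to 4 called genes per list and comparison by smallest p, MB21D2 and the 5 genes most like CD74; other names were added after values were seen. Alternatives were another pseudocount, filter or scaling, the replicate block, no trend, 2 groups only, limma-voom and leaving out each library. Results for some listed genes are not reported here.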

Additional observations from a re-analysis of the deposited data

Results flagged for a closer look

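CD74 stood on opposite sides of the vector line. Both Q311E libraries (mean 135 FPKM) were above, and both wild-type libraries (mean 63.0 FPKM) below, the vector libraries (mean 91.6 FPKM). This difference in direction was seen in the values and was not tested.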

How the results depend on the processing

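The counts called depended on the settings, and the cause was not tested. Of all genes, 2061 were called in Q311E over vector, 1412 in wild type over vector and 3162 in Q311E over wild type; without the filter these were 1210, 393 and 1608, and with 2 groups only in the fit 262, 5273 and 973. Leaving out 1 library gave 3 to 5683, 7 to 5262 and 0 to 6961. Of the members, 1, 6 and 7 were called in that order of comparisons. In Q311E over vector it was 0 with a pseudocount of 0.1, without the filter, at a mean FPKM of at least 5, with TPM scaling, with 2 groups only and with the replicate block; leaving out 1 library gave 0 to 4. In wild type over vector it was 2 without the filter and 3 of 4 tested at a mean FPKM of at least 5, and 0 to 8 with 1 library left out. In Q311E over wild type it was 4 of 4 at that filter and 0 to 8 with 1 library left out. With the replicate block the other 2 counts of members stayed at 6 and 7. The labels link the A libraries, and the B libraries, of different lines by a letter and nothing more. The A minus B differences correlated at -0.01 between Q311E and wild type, 0.39 between Q311E and vector and -0.03 between wild type and vector. Whether libraries of the same letter share a factor was not tested.

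Of the 29 other pathway genes, 8, 7 and 12 were called; without the filter 3, 3 and 5, with 2 groups only 1, 17 and 4, and with median scaling 5 in Q311E over vector. Leaving out 1 library gave 0 to 17, 0 to 17 and 0 to 22. With a line of 1 library, that library is assumed to vary like the others.

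Of 348 single-member values, 7 turned sign. In Q311E over vector, leaving out 1 library gave -0.34 to 0.47 for HLA-DRA, -0.29 to 1.00 for HLA-DRB1 and -0.25 to 0.42 for HLA-DMA, where without vector A HLA-DRA was at -0.01 and HLA-DMA at -0.11. CIITA in Q311E over wild type was -0.027 with median scaling and -0.21 to 0.29 with 1 library left out. The values of wild type over vector were below 0 for the 8 tested members in all alternatives run, reaching -4.09 for HLA-DPB1, -3.59 for HLA-DQB1 and -3.31 for HLA-DPA1, the low genes whose folds a pseudocount of 1 understates.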
